A study of Mus musculus with 12 samples.

Results

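The genes that switch on the building of many motile cilia in one cell were followed across clones of cells in the mouse oviduct (Fallopian tube). These multiciliogenesis regulators were the 10 genes Gmnc, Mcidas, E2f4, Myb, Trp73, Rfx2, Rfx3, Foxj1, Ccno and Deup1, taken by symbol from a table of 35509 genes, and all 10 were listed there. The libraries came from 6 untreated wild-type mice aged 4 weeks that carry MADM RG;GR alleles on a mixed background. MADM (mosaic analysis with double markers) colours a dividing cell's daughters differently through recombination between chromosomes, so that clones can be seen and their sizes told apart. From the distal tube of each mouse, 200 cells of large clones and 200 cells of small clones were pooled separately, giving 6 libraries of each size. The cells were cut out by laser microdissection, and their poly(A) RNA was amplified before sequencing. The labels name a region rather than a cell type, and the driver of the recombination and the size limits of the clones are not given in the sources used here. All mice share the MADM alleles, so there is no group without them.

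Ciliated and secretory cells share the epithelium of the oviduct, and the beating cilia help to carry the egg and early embryo. A cell that is to become multiciliated leaves the cell cycle and switches on the geminin-like proteins encoded by Gmnc (GEMC1) and then Mcidas (multicilin), which bind E2F4 or E2F5 with a DP partner to activate target genes. Myb, Trp73 (p73), the RFX factors and Foxj1 act below them: Myb and p73 drive early steps, RFX factors bind X-box motifs in ciliary genes, and Foxj1 is required for the genes of the motile axoneme. Ccno (cyclin O) and Deup1 act on the cell body side, where deuterosomes make the many centrioles that become basal bodies.

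RefSeq promoter sequences (GRCm38.p6, 250 bases before to 50 after a transcript start) were found for 8 of the 10 genes, all but Foxj1 and E2f4. They were searched on both strands for an X-box of the form GTNNCCNNGGNNAC, for the shorter RFX core GTTGCC, which can overlap it, and for the E2F motif TTTNNCGC. Of the 32851 promoters in the table, 1.88% held the X-box form, 12.5% the RFX core and 5.17% the E2F motif. These shares are per promoter, while the regulators are given by gene, and Gmnc, Deup1 and Trp73 had 2 promoters each. Among the regulators the X-box form was present in Deup1, Ccno and Rfx2, and the RFX core alone in Mcidas, Trp73 and Rfx3. The X-box form of Rfx2 lay after the start, and a separate RFX core lay before it. The E2F letters were in none of the 8 genes' windows. A match describes the letters only. The stretches upstream of Deup1 (chr9:15627895-15627958, minus strand), Ccno (chr13:112987558-112987621, plus strand) and Mcidas (chr13:112993648-112993703, plus strand) are shown 5′ to 3′ as examples of genes with a motif before their start, with the X-box or RFX core in capitals.
Deup1: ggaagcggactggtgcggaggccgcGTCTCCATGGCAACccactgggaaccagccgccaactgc
Ccno: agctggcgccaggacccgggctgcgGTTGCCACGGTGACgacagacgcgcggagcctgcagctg
Mcidas: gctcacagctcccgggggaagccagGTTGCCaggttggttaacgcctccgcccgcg
The motif began 87 bases before the start in Deup1, 219 before it in Ccno and 195 before it in Mcidas.

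Libraries held between 3057979 and 4227129 expected counts. Genes of olfactory, vomeronasal, trace-amine and taste receptors (chemoreceptors) took up 7.86% to 11.02% of the counts of 5 libraries, namely the large clones of mice 1, 2 and 6 with the small clones of mice 3 and 6. They took up 0.841% to 4.17% in the other 7. Summed levels of 8 epithelial markers, in CPM (counts corrected for the size of each library), were 264 to 1314 in these 5 libraries and 3995 to 8765 in the 7. Those of 12 secretory markers were 477 to 1507 and 3476 to 9175, and those of 40 motile cilium genes 522 to 1388 and 3361 to 14219. The defining markers of other cells were also measured. The 9 immune genes separated the sets in the other direction, at 153 to 363 CPM in the 5 libraries and 46.9 to 127 CPM in the 7, while the ranges of the fibroblast, endothelial, smooth muscle and red blood cell genes overlapped between the sets. Summed CPM ran from 28.7 to 537 for 9 fibroblast genes in large clones and 38.8 to 200.2 in small clones, from 63.5 to 363 and 46.9 to 196 for 9 immune genes, from 139 to 471 and 80.6 to 278 for 7 endothelial genes, from 6.04 to 118 and 2.31 to 217 for 7 smooth muscle genes, and from 200.4 to 5928 and 33.0 to 2137 for 6 red blood cell genes. The part of these in the results was not tested, and the fold changes of the 7 regulators that passed the filter on low counts are also given within the 7 and within the 5 libraries. In pooled cells, fewer cells of a type and less RNA per cell cannot be told apart.

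The regulators differed in how often they were detected, and their levels varied widely between libraries. Foxj1, Mcidas, Deup1, Myb, Rfx2 and Rfx3 had at least 1 count in 12 of 12 libraries, Trp73 in 11, E2f4 in 10, Gmnc in 9 and Ccno in 5. More than 3 counts, the limit that a count of 0 allows, were reached in 12 libraries by Mcidas and Rfx2, in 11 by Deup1, Rfx3 and Trp73, in 9 by Myb, in 8 by Foxj1, in 5 by E2f4, in 4 by Gmnc and in 2 by Ccno. That limit lay between 0.585 and 1.33 CPM and covers counting error only. The large clones of mouse 5 had all 10 genes above it, while the small clones of mice 2 and 3 had 5 each.

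No regulator differed between clone sizes beyond the spread between libraries. Of the 7 that passed the filter on low counts (Foxj1, Mcidas, Deup1, Myb, Rfx2, Rfx3 and Trp73), 0 passed edgeR's quasi-likelihood test at an adjusted p of 0.05, as did 0% of the 10848 genes tested. None of the 7 had an unadjusted p under 0.05 either, against 2.54% of all genes tested. Their log2 fold changes had a median of -0.40 (4 of 7 lower in large clones), beside 0.06 over all tested genes, of which 46.8% were lower. Ranges of CPM in large and small clones overlapped for all 10 genes, as they did for all but 0.0645% of the genes tested. Gmnc, Ccno and E2f4 did not pass the filter, and their values come from the same test with no filter on low counts, in which 0% of 25369 genes passed. With the mouse as a block in the model (paired), 0 of the 7 filtered genes had an unadjusted p under 0.05 in edgeR. Of all 10848 genes, 202 did. Without the block, edgeR put the spread between libraries of a clone size at 114.5% of the mean over all tested genes. For the 7 it ran from 97.2% (Rfx2) to 146% (Deup1), so a missing call does not exclude a difference.

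**Figure D1:**
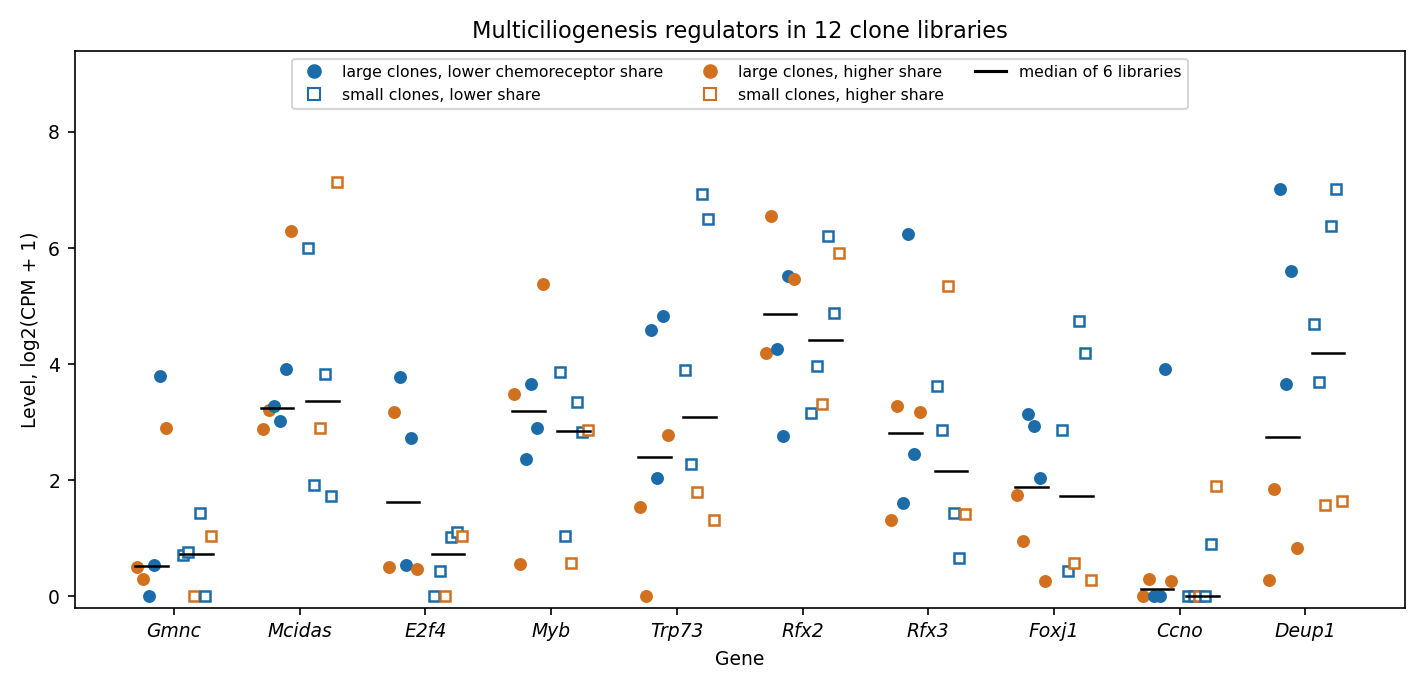
Level of each regulator in each library as log2(CPM + 1), in order of their roles, with circles for large and squares for small clones, orange for the 5 libraries with the higher chemoreceptor share and black bars for the median of 6 libraries. Large and small clones overlap for every gene, and the orange points of Deup1 all lie below the blue ones.

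The 2 geminin-like activators and E2f4 head the pathway. Gmnc (ENSMUSG00000068428, chromosome 16, 26732303 to 26810402 in the table's coordinates) had a lowest, median and highest level of 0, 0.434 and 12.9 CPM in large clones and 0, 0.666 and 1.70 CPM in small clones. Its high values were 2 large-clone libraries, 12.9 CPM in mouse 5 and 6.43 CPM in mouse 6, and the 2 together held most of its 98.05 counts. The log2 fold change with no filter was 2.32 (SE 1.56, adjusted p = 0.614 in edgeR), yet large clones were lower in 3 mice and higher in 2, and the medians lay in the opposite order to the means of 3.41 and 0.681 CPM.

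Mcidas (ENSMUSG00000074651, chromosome 13, 113130379 to 113136928) ran from 6.36 through a median of 8.45 to 77.4 CPM in large clones. In small clones it ran from 2.32 through 9.86 to 140 CPM. The 3 high libraries were the small clones of mouse 6 (140 CPM), the large clones of mouse 6 (77.4 CPM) and the small clones of mouse 1 (62.9 CPM), and no other library exceeded 14.04 CPM. High Mcidas thus occurred in both clone sizes and in both library sets. The mean ± SD of 6 libraries was 20.3 ± 28.1 CPM for large and 37.9 ± 54.9 CPM for small clones. The log2 fold change was -0.90 (SE 1.08, adjusted p = 0.9998 in edgeR), with 3 mice in each direction. It was -0.06 with the mouse as a block in the model (paired), -0.51 without mouse 1, -1.13 within the 7 libraries and -1.18 within the 5.

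E2f4 (ENSMUSG00000014859, chromosome 8, 106024295 to 106032002), the DNA-binding partner that multicilin uses, reached 12.8, 8.01 and 5.62 CPM in the large clones of mice 3, 2 and 5. In the other 3 large-clone libraries it was at 0.390 to 0.444 CPM, and in small clones it ran from 0 through 0.685 to 1.16 CPM. The 3 highest libraries were therefore all large clones, but the other large-clone libraries lay within the range of small clones. The mean ± SD of 6 libraries was 4.61 ± 5.14 CPM for large and 0.596 ± 0.543 CPM for small clones, with a log2 fold change of 2.86 (SE 1.47, adjusted p = 0.46 in edgeR with no filter), higher in large clones in 4 of 6 mice.

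Among the transcription factors below them, Myb (ENSMUSG00000019982, chromosome 10, 21000834 to 21036883), which acts early in centriole amplification and also in blood cell progenitors, ran from 0.471 through 8.32 to 40.6 CPM in large clones. In small clones it ran from 0.496 through 6.19 to 13.6 CPM. The large clones of mouse 6 stood highest, and without that mouse the log2 fold change of 1.00 (SE 0.98, adjusted p = 0.9998 in edgeR) was 0.11. Within the 7 libraries it was -0.09 and within the 5 it was 2.37. In 4 of 6 mice Myb was higher in the large clones.

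Trp73 (ENSMUSG00000029026, chromosome 4, 154140706 to 154224665), whose product activates Foxj1 and other ciliary genes, had its 2 highest values in small clones, 122 CPM in mouse 4 and 89.4 CPM in mouse 5. The other small-clone libraries held 1.47 to 13.9 CPM, and large clones ran from 0 through 4.48 to 27.5 CPM. The mean ± SD of 6 libraries was 10.2 ± 11.9 CPM for large and 38.8 ± 52.9 CPM for small clones. The log2 fold change of -1.92 (SE 1.32, adjusted p = 0.9998 in edgeR) was the furthest from 0 among the 7 filtered genes, with large clones lower in 4 of 6 mice. It was -0.93 without mouse 4, -2.62 without mouse 3, -0.39 with the chemoreceptor share in the model, -1.67 within the 7 libraries and 0.39 within the 5, where all values were at or below 5.85 CPM. The table does not separate p73 isoforms.

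Rfx2 (ENSMUSG00000024206, chromosome 17, 57082897 to 57138013) and Rfx3 (ENSMUSG00000040929, chromosome 19, 27739121 to 27988566) encode related RFX factors of ciliary gene promoters. Rfx2 had the narrowest relative spread of the 10 genes, a 16.03-fold range between libraries, from 5.77 through 30.6 to 92.5 CPM in large clones and 7.91 through 21.5 to 72.8 CPM in small clones. Its log2 fold change was 0.20 (SE 0.80, adjusted p = 0.9998 in edgeR), and -0.49 without mouse 2, whose large clones were highest. Within the 7 libraries it was -0.40 and within the 5 it was 0.59. Rfx3 was high in 2 libraries, 75.1 CPM in the large clones of mouse 4 and 39.7 CPM in the small clones of mouse 3, and at 11.4 CPM or less in the other 10. Its log2 fold change was 0.69 (SE 1.17, adjusted p = 0.9998 in edgeR), -1.32 without mouse 4 and 2.13 without mouse 3. Within the 7 libraries it was 2.32 and within the 5 it was -1.81. The libraries highest in Rfx3 were thus not those highest in Rfx2: the large clones of mouse 4 had the lowest Rfx2, 5.77 CPM.

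Foxj1 (ENSMUSG00000034227, chromosome 11, 116221530 to 116226225) held 221 counts in all. In small clones it was at 25.9 CPM in mouse 4, 17.4 in mouse 5, 6.33 in mouse 1, 0.496 in mouse 3, 0.350 in mouse 2 and 0.210 in mouse 6. In large clones it was at 7.83 CPM in mouse 3, 6.66 in mouse 4, 3.09 in mouse 5, 2.33 in mouse 1, 0.942 in mouse 2 and 0.195 in mouse 6. The 2 highest libraries were small clones, but 3 small-clone libraries lay below all but 1 of the large-clone libraries. The log2 fold change of -1.27 (SE 1.15, adjusted p = 0.9998 in edgeR), lower in large clones in 4 of 6 mice, was -1.12 within the 7 libraries and 1.59 within the 5, where no library held more than 11 counts. It was -1.97 without mouse 3, -0.80 without mouse 4 and -0.46 with the mouse as a block.

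The effectors of centriole amplification were unlike each other. Ccno (ENSMUSG00000042417, chromosome 13, 113124336 to 113127311), a cyclin of the centriole amplification programme, held 68 counts in all, 50 of them in the large clones of mouse 5 (14.04 CPM) and 13 in the small clones of mouse 6 (2.73 CPM). The other 10 libraries held 3 counts or fewer, and 7 of the 12 held 0. Outside these libraries a difference was not detectable at this depth. With no filter, the log2 fold change was 1.89 (SE 1.80, adjusted p = 0.725 in edgeR), and the large clones of mouse 5 held 77.7% of the summed CPM. Mcidas, its neighbour on chromosome 13, was also at 14.04 CPM in the large clones of mouse 5, where it was not among the 3 highest libraries.

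Deup1 (ENSMUSG00000039977, chromosome 9, 15471160 to 15539229), the core protein of the deuterosome, had the widest range of the 6 genes with a count in every library, from 0.212 CPM in the large clones of mouse 1 to 129 CPM in the small clones of mouse 5. In small clones it was at 129 CPM in mouse 5, 82.0 in mouse 4, 24.99 in mouse 1, 11.9 in mouse 2, 2.10 in mouse 6 and 1.98 in mouse 3. In large clones it was at 128 CPM in mouse 3, 47.8 in mouse 5, 11.5 in mouse 4, 2.59 in mouse 2, 0.780 in mouse 6 and 0.212 in mouse 1. Both clone sizes spanned nearly the whole range. Large clones were lower in 5 of 6 mice, and mouse 3 was the exception. Its log2 fold change was -0.40 (SE 1.33, adjusted p = 0.9998 in edgeR), -2.05 without mouse 3 and -1.88 with the mouse as a block in the model (paired), both still short of the threshold, with an adjusted p of at least 0.511 in edgeR or DESeq2 over all alternatives. Within the 7 libraries it was -0.06 and within the 5 it was -0.78.

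**Figure D2:**
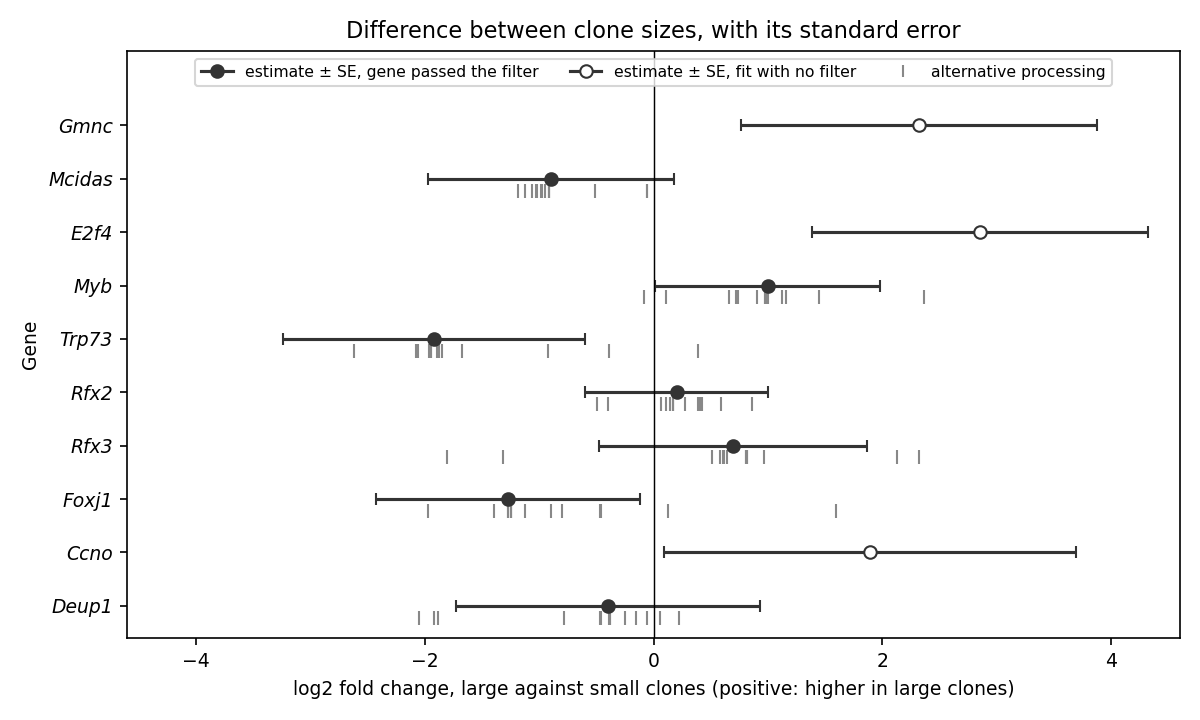
Log2 fold change of each regulator, large against small clones, with its standard error (n = 6 libraries per size), and grey ticks below it for each alternative processing. Filled points passed the filter on low counts, and open points come from the fit with no filter. The ticks of Foxj1, Deup1, Myb, Rfx2, Rfx3 and Trp73 lie on both sides of 0.

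The levels of Deup1 divided the libraries by chemoreceptor share. All 5 libraries with the higher chemoreceptor share (0.212 to 2.59 CPM) were below all 7 others (11.5 to 129 CPM). Deup1 was the 1 regulator of 10 with this separation, and 9.98% of all tested genes showed it in the same direction, so the share among the regulators is near the background. Foxj1 was at 0.195 to 2.33 CPM in the 5 libraries and 0.350 to 25.9 CPM in the 7, and Trp73 at 0 to 5.85 and 3.11 to 122 CPM. The ranges of Foxj1 overlapped through the small clones of mouse 2, and those of Trp73 through the large clones of mouse 4 and the small clones of mouse 2. In contrast the medians of Mcidas were 8.24 CPM in the 5 and 8.66 CPM in the 7, those of Myb 6.30 and 6.46 CPM, those of Rfx2 43.1 and 18.1 CPM and those of Rfx3 7.99 and 4.49 CPM. The sets were defined from these same libraries, and the differences between them were not tested.

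Levels were set against the motile cilium genes as a description, with no test. The libraries share mice, depth and the split by chemoreceptor share, so correlations are given within the 7 libraries with the lower share (5 mice). Spearman's rho with the summed CPM of the 40 motile cilium genes was 0.964 for Foxj1, 0.714 for Trp73, 0.679 for Deup1, 0.571 for Rfx2 and 0.536 for E2f4. It was 0.071 for Myb, -0.179 for Mcidas, -0.270 for Gmnc and -0.714 for Rfx3. Over all 12 libraries it was 0.909 for Deup1, 0.895 for Foxj1, 0.755 for Trp73 and 0.336 for E2f4. For Rfx2 it was then -0.056, for Myb -0.091, for Rfx3 -0.126, for Gmnc -0.169 and for Mcidas -0.238. Over the 12, Foxj1 also had a rho of 0.776 with the summed epithelial, 0.748 with the smooth muscle and 0.706 with the secretory markers. With the red blood cell, fibroblast, endothelial and immune genes it had 0.301, 0.133, -0.573 and -0.699. Within the 7 its rho was 0.536 with the epithelial, 0.214 with the smooth muscle and 0.286 with the secretory markers. Gmnc and E2f4 did not pass the filter, with more than 3 counts in 4 and 5 of 12 libraries. Their ranks thus rest mostly on low counts. The small clones of mouse 4 were highest in the cilium genes (14219 CPM), Foxj1 and Trp73. The small clones of mouse 6, highest in Mcidas, held 789 CPM of the cilium genes and 1 count of Foxj1. In contrast the small clones of mouse 1, also high in Mcidas (62.9 CPM), held 3768 CPM of the cilium genes and 20 counts of Foxj1.

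**Figure D3:**
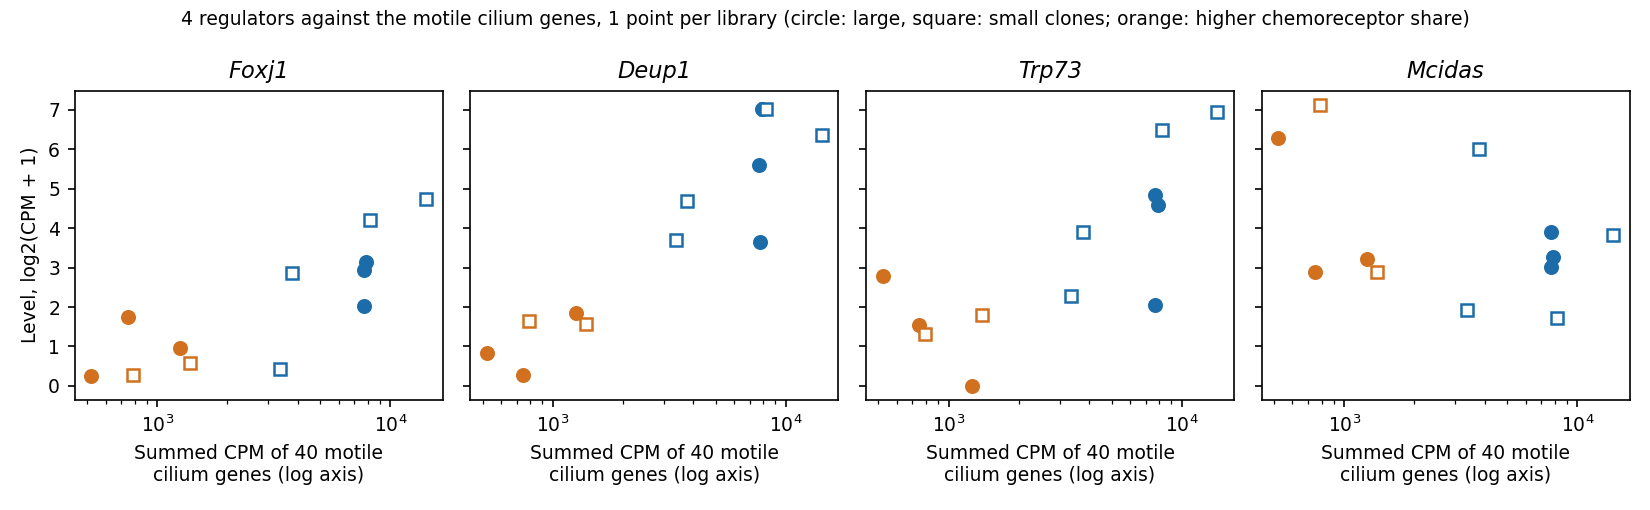
Level of Foxj1, Deup1, Trp73 and Mcidas, as log2(CPM + 1), against the summed CPM of 40 motile cilium genes on a log axis, 1 point per library (circles large, squares small clones, orange the higher chemoreceptor share). The points of Foxj1, Deup1 and Trp73 run from lower left to upper right across the 2 sets of libraries. The highest points of Mcidas (140 and 77.4 CPM) lie at the left, at 789 and 522 CPM of cilium genes. The next highest, the small clones of mouse 1 (62.9 CPM), lies further right, at 3768 CPM.

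Among the regulators themselves, within the 7 libraries, rho was 0.929 between Rfx2 and Trp73, 0.821 between Deup1 and Trp73, and 0.643 between Foxj1 and each of Deup1 and Trp73. Rfx3 ran against them, at -0.929 with Deup1, -0.893 with Trp73, -0.821 with Rfx2 and -0.643 with Foxj1. Mcidas had a rho of 0.523 with Gmnc, 0.607 with Myb and -0.143 with each of Foxj1 and Deup1. Gmnc had more than 3 counts in 4 of 12 libraries, so its rank order rests mostly on low counts. Deup1 also had 0.679 with Rfx2. These values come from 7 libraries of 5 mice, and only some of the pairs are named. All pairs of regulators with a count in at least 9 libraries were looked at. With so few libraries, some values far from 0 can arise by chance. Over all 12 libraries rho was 0.042 between Rfx2 and Trp73 and 0.783 between Deup1 and Trp73. Foxj1 then had 0.769 with Deup1 and 0.664 with Trp73. Rfx3 was at -0.259 with Deup1, -0.280 with Trp73, -0.469 with Rfx2 and -0.224 with Foxj1 over the 12.

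To compare genes with each other, CPM was divided by the length of each gene's longest coding transcript in GENCODE M21. In CPM per kilobase the medians over 12 libraries were 6.94 for Rfx2, 3.88 for Deup1, 3.55 for Mcidas, 1.73 for Myb, 1.03 for Foxj1, 0.961 for Trp73, 0.590 for Rfx3, 0.367 for E2f4, 0.132 for Gmnc and 0 for Ccno. The ranges of every pair of neighbours in this order overlapped, and Rfx2 exceeded Deup1 in 6 of 12 libraries. Foxj1, though above Trp73 by its median, was the higher of the pair in 3 of 12 libraries. Within the 7 libraries Deup1 came first, at a median of 15.8 CPM per kilobase, followed by Rfx2 at 5.41 and Trp73 at 4.58. With the mean length of the coding transcripts, Trp73 moved from the sixth to the fourth place and Foxj1 from the fifth to the seventh.

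Some counts could include reads of other genes. Mcidas, Rfx2 and Rfx3 had values more than 0.005 from a whole number in 12 of 12 libraries, Gmnc in 9, Deup1 in 8 and Myb in 6, as values can be where reads are divided among transcripts, while Foxj1, Trp73, Ccno and E2f4 had whole values throughout. Of the 50-base stretches of the coding transcripts in GENCODE M21, 7.95% of those of Myb also occurred in Gm26577 and 4.16% of those of Trp73 in Trp73os, both annotated on the opposite strand. For Mcidas 0.988%, for Deup1 0.333% and for Rfx3 0.127% occurred in other genes, and for Foxj1, Gmnc, Ccno, Rfx2 and E2f4 none did. The strand setting of the counting is not given in the sources used here. Reads from the stretches shared with Gm26577 and Trp73os therefore cannot be told apart from those of Myb and Trp73 by sequence alone. The values of Trp73 were nevertheless whole, while those of Rfx2 and Gmnc were not, with no shared stretch. Shared stretches and values that are not whole thus did not mark the same genes. Deup1 also overlaps 4930540M03Rik in the genome, Rfx3 overlaps Gm20407 and Gm8412, and Trp73 overlaps Gm26036, all on the opposite strand. Trp73os was the only gene that shared a stretch with Trp73. The genes that shared the most stretches with Deup1 and Rfx3 were not these overlapping ones.

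The genes most like each regulator were named by Spearman's rho of log2(CPM + 1) over 12 libraries, again as a description, over libraries that share mice and the split by chemoreceptor share. For Foxj1 they were B4gat1 (0.937), Cd320 (0.930) and Mtch1 (0.930), and 1339 of 10847 genes had a rho over 0.7 with it. For Deup1 they included Nrbp2 (0.967) and Dnase2a (0.965), with 1918 genes over 0.7. For Trp73 they were Prrc2c (0.965), Cops7a (0.947) and Upf2 (0.944), with 1075 genes over 0.7. These 3 regulators thus shared their pattern with many genes.

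The other regulators had fewer such genes. Rfx3 had 144 over 0.7, led by Pou2f2 (0.923), Slc17a9 (0.902) and Epha5 (0.902). Rfx2 had 79, among them the pseudogene Rps27a-ps2 (0.883) and Tial1 (0.881). E2f4 had 58, led by Tnrc6a (0.886), Sntn (0.876), which encodes the ciliary tip protein sentan, and Exosc1 (0.868). Gmnc had 48, led by Cr2 (0.916), Ciapin1 (0.852) and Gm8960 (0.851). E2f4 and Gmnc did not pass the filter on low counts, so these likenesses rest mostly on libraries with 3 counts or fewer. Mcidas had 39, led by Slc25a36 (0.846), Slc26a10 (0.818) and Zfp866 (0.811), and Myb had 35, led by Pip5k1c (0.853), Fam122a (0.837) and Ankrd13c (0.832).

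The wider pathway also held no gene that passed between clone sizes. Of 24 partners and paralogs of the regulators, 10 were tested, 6 higher and 4 lower in large clones (median log2 fold change 0.12), with 0 passing in edgeR. The highest in CPM, with no correction for length, were Rfx7, Trp53 and Mybl2. Rfx7 had a mean ± SD of 6 libraries of 59.5 ± 30.4 CPM for large and 78.1 ± 51.3 CPM for small clones. Trp53 had 50.8 ± 39.6 and 52.6 ± 39.3 CPM, and Mybl2 had 29.8 ± 26.3 and 64.0 ± 71.5 CPM. The lowest p values were those of Mybl2, a cell cycle relative of Myb, with a log2 fold change of -1.10 (SE 0.81), and Foxn4, a forkhead factor that acts with multicilin, with -1.31 (SE 1.28, lower in large clones in 5 of 6 mice).

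Of 25 centriole assembly genes, 22 were tested, 11 in each direction (median log2 fold change 0.02), and 0 passed in edgeR. Ccdc78, a deuterosome protein, was the most abundant, at 1230 ± 1122 (mean ± SD) for large and 1074 ± 856 CPM for small clones. Next came the centrosomal genes Nin (231 ± 187 and 157 ± 157 CPM) and Cep192 (195 ± 99.4 and 96.9 ± 91.6 CPM). Large clones exceeded small ones in every mouse for Cep192 (log2 fold change 1.01, SE 0.68) and Cntrl (0.82, SE 0.72). For Cep97 every mouse went the opposite way (-0.71, SE 0.49). How many tested genes keep 1 direction in all 6 mice was not counted, so no effect is read from this. The lowest p values were those of Cep135, with a log2 fold change of 3.02 (SE 1.11) and 350 CPM in 1 large-clone library, and Cby1, with 2.04 (SE 1.17). Ccdc78 was thus at levels well above those of Deup1, whose means were 31.8 ± 50.5 and 41.9 ± 51.9 CPM, a comparison that is not per length.

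Of 40 motile cilium genes, which include many that Foxj1 and RFX factors activate, 37 were tested, 25 lower and 12 higher in large clones (median log2 fold change -0.40), and 0 passed in edgeR. Ccdc153, Fam183b and Zmynd10 were the highest in CPM, again with no correction for length. Ccdc153 had a mean ± SD of 6 libraries of 748 ± 679 CPM for large and 948 ± 892 CPM for small clones. Fam183b had 627 ± 472 and 1064 ± 743 CPM, and Zmynd10 had 385 ± 389 and 369 ± 482 CPM. In 5 of 6 mice Ccdc153 and Fam183b were lower in the large clones. The lowest p values were those of Dnah11, a dynein heavy chain, and Cfap206. Dnah11 had a log2 fold change of 2.02 (SE 1.10), yet it was higher in large clones in 2 mice and lower in 4. Its highest large-clone library held 557 CPM, beside a mean ± SD of 155 ± 231 CPM in large clones. Cfap206 had -2.43 (SE 1.53) and was lower in large clones in 4 of 6 mice. With the mouse as a block, 34 of the 37 were lower in large clones (median -0.69) and 0 had an unadjusted p under 0.05. In the same fit 5674 of all 10848 genes were lower (median -0.06), and 202 had an unadjusted p under 0.05. Of the epithelial markers, 6 of 6 tested genes were lower in large clones with the block (median -1.11) and 5 of 6 without it (median -0.78), and their part in the cilium values was not tested.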

How the data were processed

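Expected counts, estimated per gene for 12 libraries, are the values the authors deposited, in 1 table. The submitters' processing notes list RSEM, Bowtie2 and GRCm38, with no versions, and the file header points to isoform results. Gene starts equalled those of GENCODE M21 (GRCm38) for 3.0% of shared identifiers, so gene coordinates are the table's own, of a build it does not name. Promoters are RefSeq's, on GRCm38.p6.

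Expected counts were rounded and tested with edgeR 4.0.16 (R 4.3.3) by the quasi-likelihood test, TMM, filterByExpr and Benjamini-Hochberg adjustment at 0.05 over 10848 genes, with no term for mouse. SE is the log2 fold change over the root of F. CPM uses TMM-scaled totals of tested genes. The same number marks the same mouse in the labels. The correlation of the 2 libraries' deviations from group means ran from -0.378 to 0.635 over 6 mice. Alternatives were a mouse block, DESeq2 1.42.0, another normalization, no filter, omission of each mouse, a covariate and library subsets. The edgeR script was tested on simulated data.

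The regulators, lists and tests were chosen with earlier results of these data known. Named beside the regulators were each one's 3 most similar genes (where at least 9 libraries had a count) and, per pathway list, the 3 most abundant genes and the 2 with the lowest p. Cntrl and Cep97 were added to set the direction of Cep192 beside others of its list. Some genes that this rule or the marker lists would name are not reported here.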

Additional observations from a re-analysis of the deposited data

Results flagged for a closer look

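Each regulator was searched in both clone sizes (20 groups of 6 libraries, log2(CPM + 1)) for 1 library far from its 5 fellows, which chance gives in about 1 of 20 groups. There were 2. Mcidas was at 77.4 CPM in the large clones of mouse 6, against 14.04 CPM in the next highest large-clone library, a gap of 0.698 of the range where the limit is 0.625. The small clones of the same mouse held 140 CPM. Ccno was at 14.04 CPM in the large clones of mouse 5, against 0.235 CPM in the next highest, a gap of 0.922 of the range. The same library held the highest Gmnc, 12.9 CPM.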

How the results depend on the processing

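None of the 7 filtered regulators passed an adjusted p of 0.05 in any of 14 alternatives that gave a p (DESeq2 without the block gave none for Rfx3). Gmnc, Ccno and E2f4 were fitted with no filter only. Mcidas (-0.90) stayed below 0 throughout, but was -0.06 with the replicate block in edgeR and in DESeq2. The log2 fold change of Foxj1 (-1.27) became 0.13 after the chemoreceptor share entered the model and 1.59 within the 5 libraries with the higher share. Within those 5, that of Trp73 (-1.92) was 0.39 and that of Rfx3 (0.69) was -1.81. Within the other 7, that of Myb (1.00) was -0.086 and that of Rfx2 (0.20) was -0.40. Leaving out 1 mouse at a time, Foxj1 ran from -1.97 to -0.80, Trp73 from -2.62 to -0.93, Myb from 0.11 to 1.45, Mcidas from -1.06 to -0.51, Deup1 from -2.05 to 0.22, Rfx2 from -0.49 to 0.86 and Rfx3 from -1.32 to 2.13. Genes passing over the whole table were 0 in edgeR with and without the replicate block, 5 in DESeq2 and 43 in DESeq2 with the replicate block. Those at an unadjusted p under 0.05 were 275 at first, 202 with the replicate block, 2880 with no filter, 535 in DESeq2, 1134 in DESeq2 with the block, 524 with the covariate, 568 within the 7 libraries, 539 within the 5, and 173 (without mouse 4) to 477 (without mouse 3) with 1 mouse left out. The cause of these changes was not tested. The replicate block changed no call among the 7. Low counts limit Ccno, Gmnc, E2f4 and Foxj1 most.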
